A study of Macaca mulatta with 20 samples.

Results

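The difference between diets in how the liver transcriptome moved over 2 years was measured in rhesus monkeys (Macaca mulatta). For each gene, the change under caloric restriction (CR), year 2 over year 0, was set against the same change on the control diet (Control), and the difference of the log2 changes is the diet by year interaction. All 20 of the 20 liver biopsy libraries enter it: CR animals 004, 007, 008, 011 and 012 and Control animals 001, 005, 006, 009 and 010, each with a biopsy at year 2 and a biopsy at year 0. The year 0 biopsies came from the time of enrolment, so each animal is its own baseline, and no transgene, drug or further treatment is named in the labels. A positive interaction means that the gene moved further up, or less far down, in CR animals than in Control animals. Values of single animals are given below in that order of animal numbers.

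The liver makes most plasma proteins, disposes of amino acid nitrogen, and makes and exports lipid, and restriction of food intake is known to shift these tasks. The sterol-sensing transcription factor SREBP2 raises the genes of cholesterol synthesis and uptake when cell sterol is low, and its relative SREBP1 raises those of fatty acid synthesis after feeding and insulin. A biopsy also holds Kupffer cells (the resident macrophages), lymphocytes, endothelial cells and stellate cells beside the hepatocytes.

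Control 009 at year 2 had the smallest library, 15421789 estimated counts, and the other 19 held 20883559 to 31440640. Control 009 and Control 001 at year 2 stood apart from all others: albumin took 5.42% and 8.57% of their counts, against 10.6% to 15.8% elsewhere, and their median correlations with the other libraries were 0.851 and 0.898, against at least 0.954. The median size of a gene's paired log2 change was 0.919 in Control 009 and 0.720 in Control 001, between 0.312 and 0.384 in Control 005, 006 and 010, and between 0.228 and 0.371 in the 5 CR animals. Over all genes tested, the SD of the paired changes had a median of 0.375 in CR and 0.717 in Control, and 0.409 in Control without 001 and 009. In 81.4% of genes the SD was larger in Control. Results are therefore also given without these 2 animals.

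No gene passed the adjusted threshold in edgeR's quasi-likelihood test. Of 13730 genes, 0 were called (0%) at an adjusted p under 0.05, and the smallest adjusted p was 0.581. At an unadjusted p under 0.05 there were 941 genes (6.85%), 363 above 0 (2.64%) and 578 below 0 (4.21%), where 686 would be expected if no gene differed. DESeq2 on the same counts and design called 41 genes (0.299%), 16 above 0 (0.117%) and 25 below 0 (0.182%). The median interaction over all genes was 0.01, and 50.6% of genes lay above 0 and 49.4% below 0. The paired changes of the 5 CR animals did not overlap those of the 5 Control animals in 241 genes (1.76%), with CR above in 125 (0.91%) and below in 116 (0.845%).

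Counts for the CR and Control changes were unequal in these fits, which share an estimate of the spread between diets. The change in CR animals gave 0 calls in edgeR (397 genes at an unadjusted p under 0.05, 2.89%, with 1.14% higher and 1.76% lower) and 18 in DESeq2 (0.131%). The change in Control animals gave 0 calls in edgeR (2005 genes at an unadjusted p under 0.05, 14.6%, with 7.11% higher and 7.49% lower) and 210 in DESeq2 (1.53%). Without Control 001 and 009 the order turned, at 1158 genes for CR and 1074 for Control (edgeR, unadjusted p under 0.05). It also turned with voom sample quality weights, at 1422 and 1188 genes. The CR and Control changes had opposite signs in 54.2% of all genes. In bulk tissue, fewer cells of a type and less RNA per cell cannot be told apart, and this holds for every gene below.

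The genes with the smallest p above 0 are described next, none of them called by edgeR. THEMIS, a T-lineage protein that tunes T-cell receptor signalling during thymic selection, stood at 2.44, 7.61, 4.76, 6.70 and 4.76 CPM in CR animals at year 2, against 2.58, 2.33, 2.37, 4.13 and 3.98 CPM at year 0. In Control animals it stood at 1.42, 1.91, 2.20, 1.76 and 4.21 CPM at year 2, against 3.45, 5.82, 6.33, 9.34 and 11.0 CPM at year 0. The level was lower at year 2 in all 5 Control animals and higher at year 2 in 4 of 5 CR animals, and the changes did not overlap. The interaction was 2.36 ± 0.39 (SE, 5 animals per diet, edgeR adjusted p = 0.581, two-sided exact permutation p = 0.00794 for the paired changes), from a CR change of 0.72 ± 0.27 and a Control change of -1.64 ± 0.28. It was 2.20 without Control 001 and 009.

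SLAIN1, which promotes microtubule growth, stood at 10.8, 10.7, 11.5, 11.1 and 15.6 CPM in CR animals at year 2, against 13.7, 5.47, 7.04, 3.34 and 4.76 CPM at year 0. The Control animals had 9.36, 5.70, 3.03, 3.52 and 3.89 CPM at year 2, against 19.4, 13.1, 15.2, 6.63 and 6.34 CPM at year 0. All 5 Control animals were lower at year 2, 4 of 5 CR animals were higher, and CR 004 was the exception. The interaction was 2.19 ± 0.44, and the changes did not overlap (exact permutation p = 0.00794, the smallest that the 252 splits of 10 animals allow, before any adjustment over genes).

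ELOVL6, the elongase that lengthens palmitate to stearate, stood at 109, 44.0, 29.0, 80.5 and 9.29 CPM in CR animals at year 2, against 95.1, 10.8, 32.3, 27.2 and 18.2 CPM at year 0. In Control animals the values were 79.6, 12.6, 15.7, 11.0 and 16.3 CPM at year 2, against 269.6, 58.8, 60.3, 28.5 and 71.2 CPM at year 0. Each Control animal was lower at year 2, with paired log2 changes of -1.76, -2.22, -1.94, -1.37 and -2.13, whereas 3 CR animals were higher and 2 were lower. The interaction was 2.42 ± 0.50 (exact permutation p = 0.00794), and its larger part was the Control change of -1.89 ± 0.35.

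IRX3, a homeobox transcription factor, stood at 4.47, 4.13, 3.11, 1.49 and 2.18 CPM in CR animals at year 2, against 1.46, 0.333, 0.342, 0.199 and 0.238 CPM at year 0. Control animals had 5.90, 1.65, 1.86, 2.42 and 1.78 CPM at year 2, against 1.47, 3.52, 2.19, 2.63 and 4.62 CPM at year 0. All 5 CR animals were higher at year 2, and Control 001 was the single Control animal that moved the same way, inside the CR range. Here the CR change (2.84 ± 0.48) was the larger part of the interaction of 3.05 ± 0.66 (exact permutation p = 0.0159), which was 3.71 without Control 001 and 009.

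**Figure D1:**
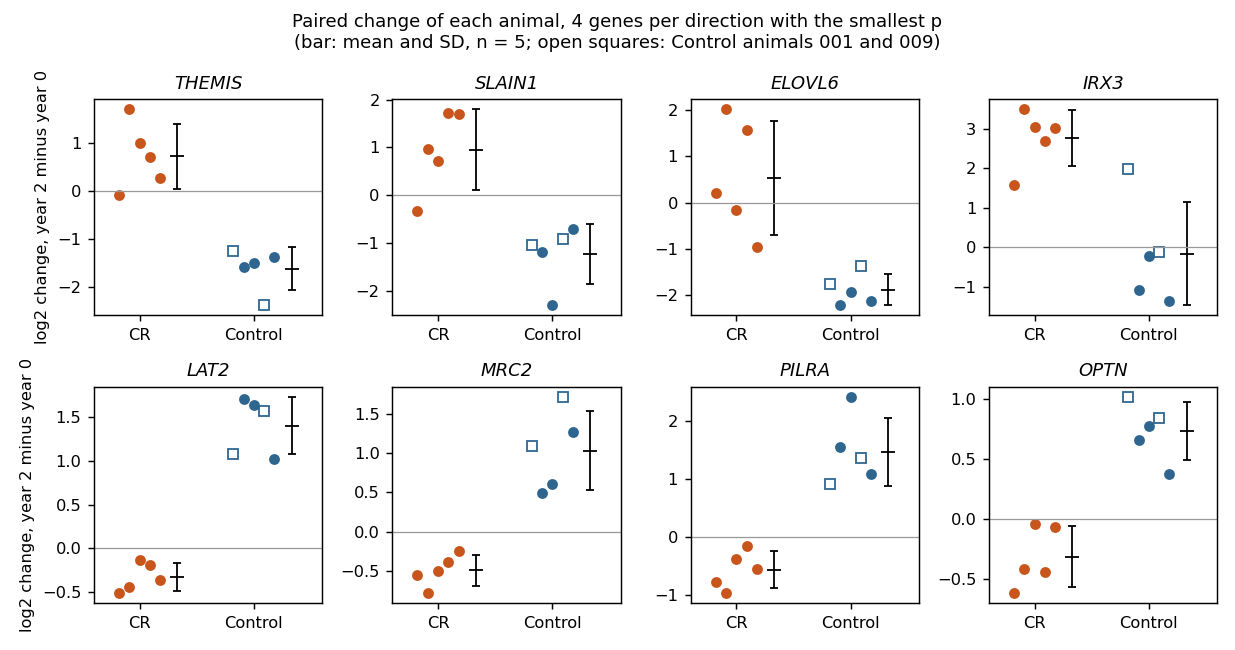
Paired log2 change in CPM (year 2 minus year 0, vertical axis) of each animal for the 4 genes per direction with the smallest p, CR left and Control right, with the mean and SD (n = 5) as a bar and Control 001 and 009 as open squares. For LAT2, MRC2, PILRA and OPTN all 5 CR animals lie below 0 and all 5 Control animals above it, and in IRX3 1 open square lies among the CR points.

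A further 10 genes above 0 followed. GNE, which makes the sialic acid precursor, had an interaction of 1.31 ± 0.30, with a CR change of -0.11 and a Control change of -1.42. HRG, a plasma glycoprotein secreted by hepatocytes, had 1.59 ± 0.40. HRG averaged 5945 CPM in CR animals at year 2 and 3379 CPM at year 0, and 3119 CPM in Control animals at year 2 and 5194 CPM at year 0. CCDC115, an assembly factor of the proton pump of acidic organelles, had 1.06 ± 0.26, with all 5 CR animals up and all 5 Control animals down. The mucin-type glycosyltransferase gene GALNTL2 had 1.10 ± 0.26, the lipid transporter gene ABCA8 1.02 ± 0.25 and the cytolinker gene EPPK1 1.46 ± 0.37. TMEM116 (1.22 ± 0.29), LRP2BP (1.10 ± 0.29) and the low-level neuronal calcium sensor gene HPCAL4 (3.36 ± 0.80, median 0.365 TPM) are the others besides HMGCS1, described with its pathway.

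Below 0, the 4 genes with the smallest p were each lower at year 2 in all 5 CR animals and higher at year 2 in all 5 Control animals. LAT2, an adaptor protein of B cells, mast cells and myeloid cells, stood at 1.13, 1.35, 1.92, 2.33 and 1.55 CPM in CR animals at year 2, against 1.62, 1.85, 2.12, 2.66 and 2.01 CPM at year 0. In Control animals it stood at 1.78, 2.21, 3.55, 4.96 and 1.78 CPM at year 2, against 0.825, 0.651, 1.11, 1.65 and 0.857 CPM at year 0. Every CR animal was slightly lower at year 2 and every Control animal was at least 1 log2 unit higher. The interaction was -1.77 ± 0.34 (exact permutation p = 0.00794).

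MRC2, an endocytic collagen receptor, had 3.25, 4.02, 4.86, 5.68 and 3.73 CPM in CR animals at year 2, against 4.77, 6.91, 6.85, 7.39 and 4.42 CPM at year 0. Control animals had 6.82, 6.65, 8.09, 14.8 and 7.51 CPM at year 2, against 3.19, 4.73, 5.29, 4.51 and 3.09 CPM at year 0. The highest of the 20 values was that of Control 009 at year 2. The interaction of -1.53 ± 0.30 (exact permutation p = 0.00794) was -1.30 without Control 001 and 009.

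PILRA, an inhibitory receptor of myeloid cells, stood at 0.722, 0.640, 1.33, 1.38 and 0.913 CPM in CR animals at year 2, against 1.27, 1.29, 1.74, 1.55 and 1.36 CPM at year 0. The Control values were 0.712, 2.37, 3.13, 1.68 and 1.46 CPM at year 2, against 0.359, 0.781, 0.557, 0.628 and 0.671 CPM at year 0. At year 0 every CR value lay above every Control value, and at year 2 the ranges overlapped. The interaction was -2.11 ± 0.43 (exact permutation p = 0.00794).

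OPTN, the autophagy receptor optineurin, stood at 27.5, 32.9, 38.7, 37.7 and 41.7 CPM in CR animals at year 2, against 42.2, 44.0, 39.8, 51.1 and 43.5 CPM at year 0. In Control animals it had 48.4, 47.8, 48.0, 52.9 and 42.3 CPM at year 2, against 23.9, 30.2, 28.1, 29.4 and 32.7 CPM at year 0. Both sets of 5 were tight and exchanged places: CR lay above Control at year 0 without overlap, and all Control values lay above all CR values at year 2. The interaction was -1.05 ± 0.21 (exact permutation p = 0.00794), and -0.94 without Control 001 and 009.

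A further 11 genes below 0 followed. MAMU-DMA, a class II peptide-loading chain, had -1.53 ± 0.37. Whether reads of related MHC genes enter its estimated counts was not tested. LPL, lipoprotein lipase, had -1.34 ± 0.32, with a CR change of -0.93 and a Control change of 0.41. GAB2, a docking protein of growth factor and immune receptors, had -1.42 ± 0.31, the nucleobase transporter gene SLC43A3 -1.57 ± 0.38 and the kinase gene LRRK1 -1.49 ± 0.34. CLEC3B, the plasminogen-binding protein tetranectin, had -2.90 ± 0.64, and CEP57L1, a centrosomal protein, -2.60 ± 0.53.

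EPHB1, an ephrin receptor, had -3.87 ± 0.81 and was the gene called by edgeR when Control 001 was left out (adjusted p = 0.0363) or both Control 001 and 009 (adjusted p = 0.0437). It stood at 11.3, 14.2, 10.6, 2.08 and 3.10 CPM in CR animals at year 2, against 14.2, 8.42, 20.1, 5.40 and 6.83 CPM at year 0. The Control animals stood at 14.0, 14.7, 7.85, 1.60 and 1.92 CPM at year 2, against 10.7, 0.564, 0.398, 0.196 and 0.0745 CPM at year 0. Control 001 had 10.7 CPM at year 0, where the other 4 Control animals were at or below 0.564 CPM. LYPD6B, PTCHD2 and SCN8A, with fitted interactions of -5.17, -6.04 and -6.07, had median levels of 0.795, 0.225 and 0.0950 TPM, where fitted values depend on the prior count and give no bound.

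Across these 29 genes, the CR and Control changes had opposite signs in 28, against 54.2% of all genes, and the Control change was the larger in absolute size in 20, also against 54.2%. The interaction can equally be read as the gap between diets at year 2 minus the gap at year 0. These gaps had opposite signs in 28 of the 29 genes, against 46.7% of all genes, and the year 2 gap was the larger in 14. THEMIS had a gap (CR minus Control) of 1.18 at year 2 and -1.15 at year 0, OPTN -0.43 and 0.61, and IRX3 0.25 and -2.68. The year 0 gaps were measured before the diets began. These 29 genes were chosen by the interaction itself, so these counts describe them and test nothing. The same holds for their exact permutation p, and for that of list members named by smallest p. Every gene without overlap has an exact permutation p of 0.00794, and 241 of all genes (1.76%) had no overlap.

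Cholesterol synthesis and uptake was the gene list with the highest median interaction of the 34 described here. It stood at 0.77 over 25 genes (all genes 0.01), with 22 above 0, from a median CR change of 0.27 and a median Control change of -0.52. At an unadjusted p under 0.05 there were 9 above 0 and 0 below 0, where 2.64% and 4.21% of all genes were. Averaged over the list, the paired change was 0.50, 0.49, -0.21, 0.42 and -0.12 in CR animals and 0.07, -0.81, -0.76, -1.08 and -0.09 in Control animals. The highest Control animals, 001 and 010, lay within the CR range. Without Control 001 and 009 the median was 0.69, with 24 of 25 above 0.

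HMGCS1, the cytosolic synthase that makes HMG-CoA for cholesterol, had the smallest p of the list. It stood at 249.5, 89.1, 112, 111 and 98.9 CPM in CR animals at year 2, against 115, 46.0, 73.2, 53.1 and 87.2 CPM at year 0. Control animals had 63.8, 66.4, 56.5, 97.8 and 127 CPM at year 2, against 81.1, 107, 168, 136 and 119.7 CPM at year 0. All 5 CR animals were higher at year 2, 4 of 5 Control animals were lower, and the smallest CR change (012) lay above the largest Control change (010). The interaction was 1.38 ± 0.33 (exact permutation p = 0.00794, DESeq2 adjusted p = 0.0253), and 1.49 without Control 001 and 009.

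The rest of the pathway was mixed in how far each diet contributed. MSMO1, a sterol C4-methyl oxidase, had 1.27 ± 0.38 (exact permutation p = 0.00794), with a CR change of 0.49 and a Control change of -0.77, without overlap. DHCR7, which makes cholesterol from 7-dehydrocholesterol, had 1.64 ± 0.50 (exact permutation p = 0.0397), mostly from a Control change of -1.35. SC5DL, the sterol C5 desaturase (1.18 ± 0.39), HSD17B7 (0.75 ± 0.27), the lanosterol demethylase CYP51A1 (1.33 ± 0.52), ACAT2 (0.81 ± 0.34), the squalene synthase FDFT1 (0.71 ± 0.30) and the regulator SREBF2 (0.95 ± 0.43) were the others at an unadjusted p under 0.05. EBP, PMVK and SCAP were the 3 members below 0, at -0.73, -0.19 and -0.11.

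**Figure D2:**
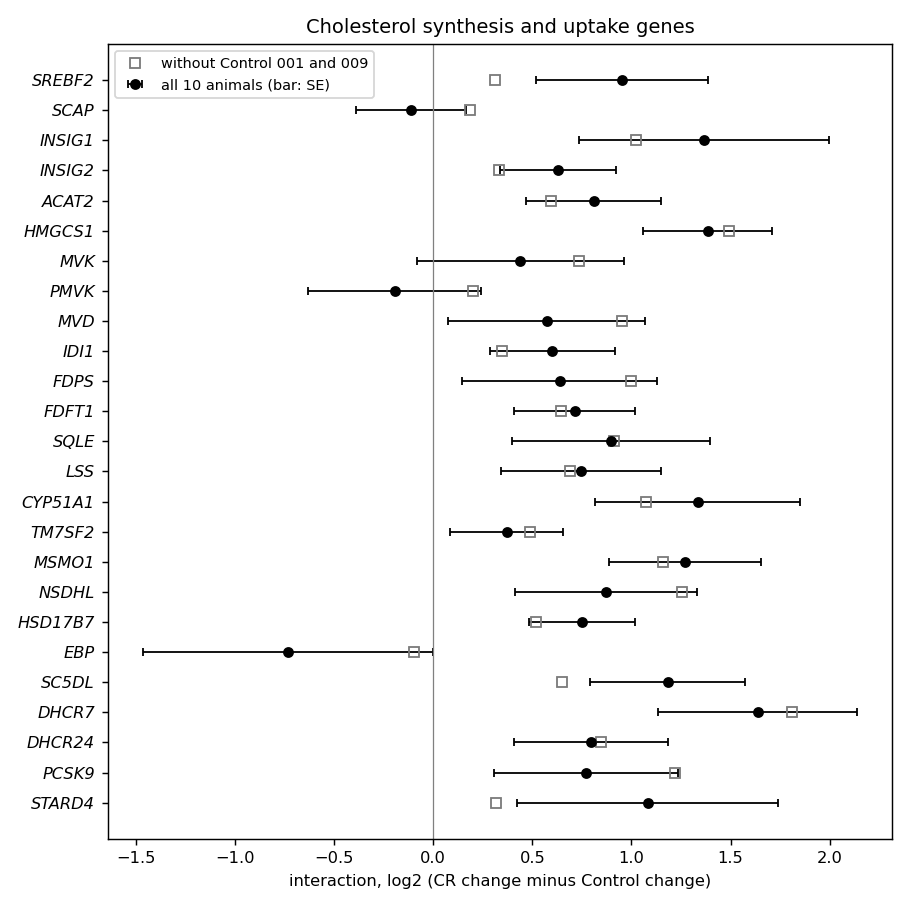
Interaction (log2, CR change minus Control change, horizontal axis) of 25 cholesterol synthesis and uptake genes, with its SE from all 10 animals (filled circles) and without Control 001 and 009 (open squares). Most filled circles lie right of 0, with DHCR7 at 1.64 and HMGCS1 at 1.38, and SREBF2, SC5DL and STARD4 move towards 0 without the 2 animals.

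Genes of fatty acid and triglyceride synthesis lay on both sides of 0. The median interaction was 0.22 over 30 genes, 20 above 0 (0.11 without CR 007 and 0.42 without CR 012). At an unadjusted p under 0.05, 2 lay above 0 (ELOVL6 and ME1) and 1 below 0 (LPL), where 2.64% and 4.21% of all genes were. ME1, which makes NADPH for lipid synthesis, had 1.47 ± 0.43 (exact permutation p = 0.00794). FASN, fatty acid synthase, stood at 511, 209, 91.7, 152 and 61.0 CPM in CR animals at year 2, against 296, 39.1, 166, 90.2 and 61.8 CPM at year 0. In Control animals it stood at 784, 30.9, 60.3, 272 and 62.7 CPM at year 2, against 1542, 62.5, 70.7, 67.0 and 225 CPM at year 0. The animals of each diet moved in both directions and overlapped, and the interaction was 1.08 ± 0.74 (exact permutation p = 0.286). SREBF1, which encodes SREBP1, had -0.10 ± 0.60 (exact permutation p = 0.905).

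Fatty acid oxidation and ketone body genes had a median of 0.30 over 34 genes, 28 above 0, and -0.06 with 16 of 34 above 0 without Control 001 and 009. Without Control 009 alone the median was -0.004. ACADL, a long-chain acyl-CoA dehydrogenase, had 1.55 ± 0.65 (exact permutation p = 0.0556), and PDK4, the kinase that shuts pyruvate off from oxidation, had 0.94 ± 0.40 (exact permutation p = 0.0476). The fasting-response regulators PPARA (-0.26 ± 0.39), PPARGC1A (0.31 ± 0.77) and FGF21 (-0.11 ± 1.20) and the carnitine transferase gene CPT1A (-0.65 ± 1.21) had interactions within their SE. PCK1, the first committed enzyme of gluconeogenesis, had 0.62 ± 0.56 and IGF1, the growth hormone target, 0.81 ± 0.43, and both diets overlapped in each.

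Genes made chiefly by hepatocytes lay above 0 as lists, with the larger part in Control animals. Hepatocyte plasma proteins had a median of 0.53 (22 of 22 above 0, CR 0.09, Control -0.47), with F9 (clotting factor IX, 0.96 ± 0.42) at exact permutation p = 0.0159. Without Control 009 the list median was 0.23, and F9 stood at 0.53 without Control 001 and 009. Amino acid and urea cycle enzymes had a median of 0.52 (39 of 46 above 0, CR 0.05, Control -0.44). The median of this list was 0.31 without Control 009. At an unadjusted p under 0.05, 7 lay above 0 and 0 below 0 (all genes 2.64% and 4.21%). Among the 7 were DBT (0.87 ± 0.31) and BCKDHB (0.95 ± 0.36), subunits of the branched-chain keto acid dehydrogenase, and KYNU (0.84 ± 0.33), an enzyme of tryptophan breakdown. Without Control 001 and 009 the 3 enzymes stood at 0.45, 0.39 and 0.40. The 10 hepatocyte markers had a median of 0.48, which was 0.21 without Control 009 and 0.83 without Control 001, and their sum ran from 145272 to 165928 TPM in CR animals at year 2 and from 121314 to 171010 TPM at year 0. In Control animals it ran from 69935.5 to 146828 TPM at year 2, and from 123341 to 148181 TPM at year 0. The part of these sums in the list medians was not tested.

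Bile acid genes had a median of 0.41 (17 of 21 above 0) and 0.03 without Control 001 and 009, and between 0.23 (without Control 009) and 0.72 (without Control 006) with 1 animal left out. SLC10A1, the bile acid uptake transporter, had 0.96 ± 0.39 (exact permutation p = 0.0317). Its Control changes were -1.30 (001) and -1.72 (009), and between -0.85 and -0.27 in Control 005, 006 and 010. The circadian clock list had a median of 0.52 (16 of 18 above 0), 0.52 with 12 of 18 above 0 without Control 001 and 009, and 0.29 without CR 011. HLF, a clock output transcription factor, had 1.08 ± 0.33 (exact permutation p = 0.0238), and the clock repressor gene CRY2 1.03 ± 0.39 (exact permutation p = 0.0476). Among drug metabolism enzymes (median 0.20, and 0.38 without Control 001), SULT2A1, which sulfates steroids and bile acids, had 1.44 ± 0.39 (exact permutation p = 0.0159). AKR1B10, an aldo-keto reductase, had -2.85 ± 0.82 (exact permutation p = 0.0159, DESeq2 adjusted p = 0.025), from a CR change of 0.88 and a Control change of 3.73. Control 005, 006, 009 and 010 had 0.304, 0.199, 0.0393 and 0.335 CPM at year 0, where the size of a change depends on the prior count. Control 001 had 10.7 CPM at year 0 and a paired log2 change of 1.32.

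Within glucose metabolism, the liver and general pyruvate kinase isozymes had opposite signs. The 31 genes had a median of 0.09, between 0.008 without Control 009 and 0.25 without Control 001. At an unadjusted p under 0.05, 2 lay above 0 and 5 below 0 (all genes 2.64% and 4.21%). The 2 were PKLR, the liver and red cell pyruvate kinase (1.02 ± 0.40), and GYS2, the liver glycogen synthase (1.08 ± 0.49). The 5 were PKM, the pyruvate kinase of most other tissues (-1.03 ± 0.27), the hexokinases HK1 (-0.82 ± 0.30), HK2 (-1.84 ± 0.69) and HK3 (-1.10 ± 0.43) and the muscle-type phosphofructokinase PFKM (-0.91 ± 0.36). PKM changes did not overlap between diets (exact permutation p = 0.00794).

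**Figure D3:**
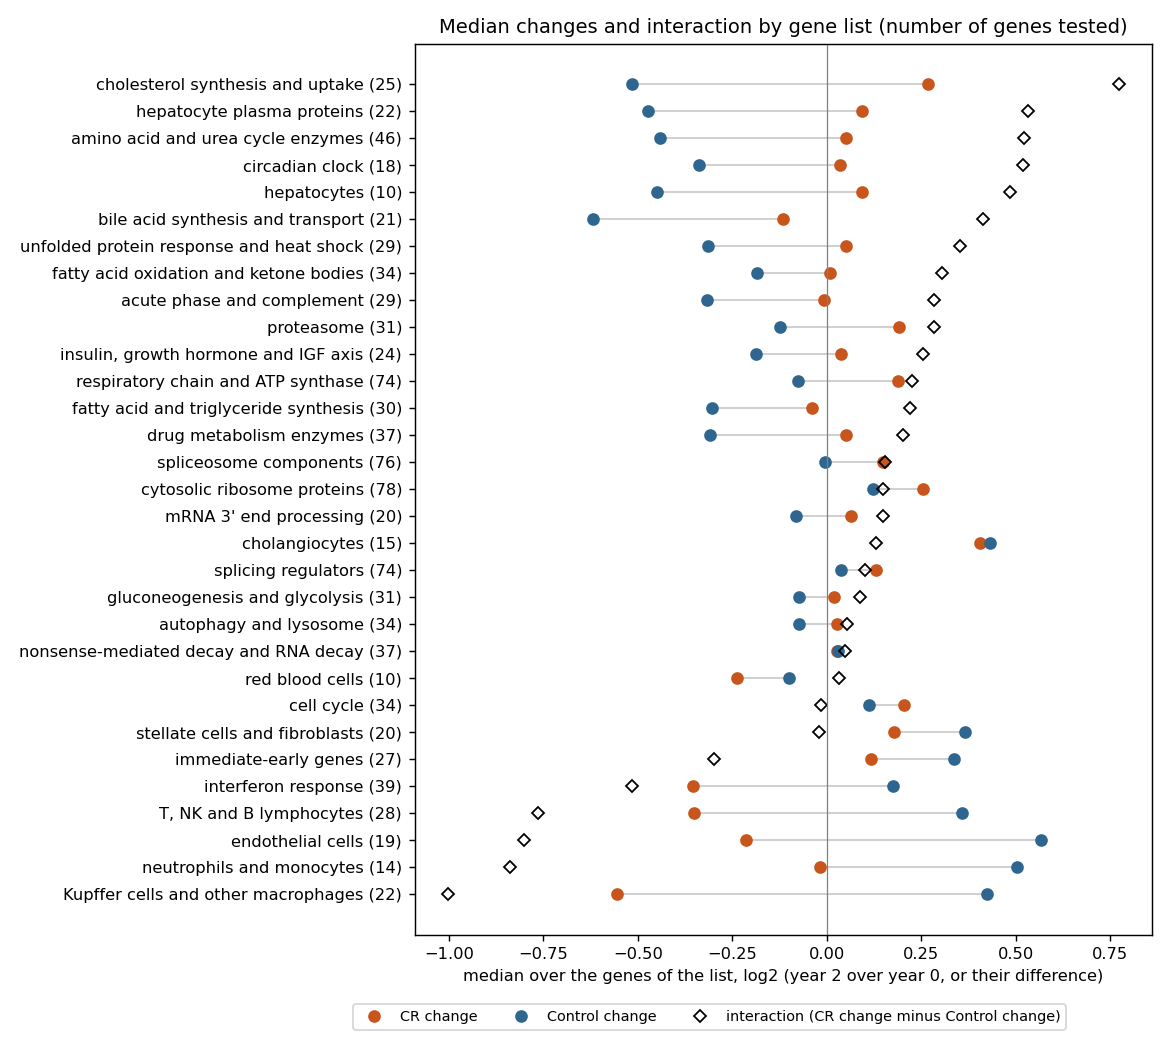
Median over each gene list of the CR change, the Control change and the interaction (log2, horizontal axis), for lists with at least 10 genes tested, ordered by the median interaction. Cholesterol synthesis is at the top (0.77) and macrophage markers at the bottom (-1.002), and in most lists the Control point lies further from 0 than the CR point.

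RNA processing is the subject of the series' title. Spliceosome components had a median interaction of 0.15 over 76 genes, 55 above 0, from a median CR change of 0.15 and a median Control change of -0.01. The median was 0.085 without Control 005. At an unadjusted p under 0.05 there were 4 above 0 and 0 below 0 (all genes 2.64% and 4.21%). The paired changes did not overlap in 6 genes with CR above (0.91% of all genes). SF3B14, a branch point binding subunit of the splicing factor SF3B, stood at 30.7, 36.3, 33.3, 33.2 and 34.9 CPM in CR animals at year 2, against 26.2, 25.8, 26.1, 30.8 and 28.5 CPM at year 0. In Control animals it stood at 27.3, 26.2, 30.9, 17.1 and 34.4 CPM at year 2, against 30.2, 33.1, 32.4, 32.3 and 37.3 CPM at year 0. All 5 CR animals were higher and all 5 Control animals lower at year 2, and Control 009 had the largest drop. Its interaction was 0.61 ± 0.22 (exact permutation p = 0.00794), and 0.45 without Control 001 and 009. RNPC3, a protein of the minor spliceosome, had 0.98 ± 0.35 (exact permutation p = 0.0397), and MAGOHB, a core protein of the exon junction complex, 0.69 ± 0.26 (exact permutation p = 0.00794).

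Averaged over the spliceosome list, the paired change was 0.20, 0.10, 0.03, 0.10 and 0.28 in CR animals and 0.31, -0.17, -0.12, -0.11 and 0.03 in Control animals. Control 001 was the highest of all 10, and 3 of 5 Control animals lay below 0. Splicing regulators had a median of 0.10 (47 of 74 above 0, and 0.064 without Control 005). At an unadjusted p under 0.05 there was 1 gene on each side, MBNL3 (1.33 ± 0.54) and the low-level gene NOVA1 (-1.74 ± 0.73). The Control changes of MBNL3 were -2.72 (001) and -2.62 (009), and between -1.18 and -0.48 in Control 005, 006 and 010. The kinases of splicing factors CLK1 and CLK4 had 0.06 ± 0.39 and 0.16 ± 0.33, the splicing factor genes SRSF3 and TRA2B 0.17 ± 0.25 and 0.30 ± 0.23. For mRNA 3' end processing the median was 0.15 (15 of 20 above 0) and for nonsense-mediated and RNA decay 0.05 (21 of 37 above 0), with 0 genes of either list at an unadjusted p under 0.05. The first of these medians was 0.066 with 13 of 20 above 0 without Control 001 and 009, 0.058 without Control 001 and 0.056 without CR 011, and the median of the decay list was 0.009 without Control 005. The paired change averaged over the 3' end processing list was 0.22, 0.02, 0.02, 0.07 and 0.03 in CR animals. In Control animals this mean was -0.11, -0.08, -0.03, -0.07 and -0.06. The means did not overlap between diets, in 1 of the 34 lists looked at. On log2(TPM + 1) values the median of all genes was -0.20, and the medians of these 4 lists were below 0 there, at -0.10 for the spliceosome, -0.14 for splicing regulators, -0.11 for 3' end processing and -0.19 for decay.

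Lists of protein and energy machinery had medians above 0 that moved with single animals. The proteasome had 0.28 (29 of 31 above 0, and 0.14 without Control 009), with PSMB2 (0.61 ± 0.23), PSMA3 (0.52 ± 0.19) and PSMD14 (0.57 ± 0.22) at an unadjusted p under 0.05. The respiratory chain and ATP synthase had 0.22 (61 of 74 above 0, 0.10 without Control 009 and 0.42 without Control 001). ATP5G3, a subunit of the ATP synthase ring, had 0.78 ± 0.28 (exact permutation p = 0.0159). Its Control changes were -0.97 (001) and -1.23 (009), and between -0.40 and 0.07 in Control 005, 006 and 010. Ribosomal proteins of the cytosol had 0.15 (61 of 78 above 0), and the direction turned to -0.09 without Control 005, whereas it was 0.39 with 78 of 78 above 0 without Control 001 and 009. On log2(TPM + 1) values the ribosomal and respiratory chain medians were -0.09 and -0.01. The unfolded protein response and heat shock list had 0.35, 0.11 without Control 001 and 009 and 0.014 without Control 009 alone, with 0 genes at an unadjusted p under 0.05.

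Immune and endothelial markers lay below 0. The macrophage list had the lowest median, -1.002 (1 of 22 above 0, CR -0.56, Control 0.42). At an unadjusted p under 0.05, 7 genes lay below 0 and 0 above 0 (all genes 4.21% and 2.64%). Among the 7 were SIGLEC1 (-1.31 ± 0.39) and C1QA (-1.18 ± 0.47), and 0 of the list were called by DESeq2. Averaged over the list, the paired change was -1.48, -1.20, -0.11, -0.07 and -0.03 in CR animals and 0.36, 0.95, 1.50, -0.32 and -0.47 in Control animals. CR 004 and 007 were far below the other 3 CR animals, and 2 Control animals lay below those 3. Without Control 001 and 009 the median was -1.25. The 23 macrophage markers in the table summed to 1020.2 to 2274 TPM in CR animals at year 2 and 2028 to 2540.4 TPM at year 0. In Control animals they summed to 1488 to 3062 TPM at year 2 and 1199.7 to 1864 TPM at year 0. The ranges of the diets overlapped at year 2 and did not overlap at year 0, when CR animals were higher. The most abundant members were CD14 (303.9 to 548 TPM over all libraries) and C1QB (125 to 519 TPM), and 0 of the 23 were at 0 in every library.

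Lymphocyte markers had a median of -0.76, with 27 of 28 below 0, and -0.37 without CR 004 or -0.50 without Control 009. The mean change over the list was -1.58 in CR 004 and between -0.10 and 0.10 in the other 4 CR animals. THEMIS was the single member above 0, opposite in sign to CD247 (-1.65 ± 0.52), CD7 (-2.03 ± 0.58) and CD4 (-1.23 ± 0.45). The 30 markers in the table summed to 69.3 to 146 TPM in CR animals at year 2 and 118 to 217 TPM at year 0, and to 69.8 to 403 TPM in Control animals at year 2 and 66.1 to 114 TPM at year 0. As for macrophages, the ranges of the diets overlapped at year 2 but not at year 0, when CR animals were higher. Endothelial markers had a median of -0.80 (0 of 19 above 0), with 5 below 0 at an unadjusted p under 0.05 (all genes 4.21%). Among the 5 was STAB2, a scavenger receptor of liver sinusoids (-1.10 ± 0.36). The endothelial median was -0.40 without Control 001 and 009. The 19 endothelial markers summed to 412 to 992 TPM in CR animals at year 2 and 763 to 862 TPM at year 0, and to 710.2 to 4458 TPM in Control animals at year 2 and 456 to 819 TPM at year 0. The median sum in Control animals at year 2 was 941 TPM, and FCN2 alone reached up to 2671 TPM. Neutrophil and monocyte markers had a median of -0.84 (2 of 14 above 0), which ran from -1.47 without Control 009 to -0.16 without Control 006 and was -0.20 without Control 005, -0.45 without CR 004 and -0.54 without Control 001. They summed to 62.4 to 399.7 TPM in CR animals at year 2 and 252 to 382 TPM at year 0, and to 81.2 to 451 TPM in Control animals at year 2 and 89.8 to 242 TPM at year 0. Here too the ranges overlapped at year 2 but not at year 0, when CR animals were higher. Stellate cell (-0.02), cholangiocyte (0.13) and red cell markers (0.03) had medians closer to 0, each of which took both signs when single animals were left out. The stellate median was 0.25 without Control 001 and 009, and the mean change over that list was 1.31 in Control 009 and between -0.30 and 0.66 in the other 9 animals. The 20 stellate markers summed to 571 to 695 TPM in CR animals at year 2 and 451 to 641 TPM at year 0, and to 349 to 2285 TPM in Control animals at year 2 and 507 to 721 TPM at year 0. Cholangiocyte markers summed to 73.8 to 169 TPM in CR animals at year 2 and 74.3 to 87.1 TPM at year 0, and to 67.5 to 171 TPM in Control animals at year 2 and 56.0 to 80.8 TPM at year 0. Red cell markers summed to 537 to 1160 TPM in CR animals at year 2 and 268 to 1543 TPM at year 0, and to 928 to 1945 TPM in Control animals at year 2 and 585 to 2095 TPM at year 0. The part of cell-type markers in the genes named above, LAT2, PILRA and MAMU-DMA included, was not tested.

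The interferon list, 39 genes, had 12 above 0 and a median of -0.51, with GBP2 (-1.39 ± 0.42, exact permutation p = 0.00794) and the immunoproteasome subunits PSMB8 (-0.97 ± 0.40) and PSMB9 (-1.04 ± 0.46) below 0 at an unadjusted p under 0.05. GBP2 changes did not overlap between diets. The list median was -0.18 without CR 004, in which the mean change over the list was -1.44, against -0.39 to 0.62 in the other 4 CR animals. The acute phase and complement list had 0.28, with 0 genes at an unadjusted p under 0.05, and its direction turned without Control 009 (-0.08; 0.56 without Control 001). The immediate-early genes, which respond quickly to many stimuli, had a median of -0.30, and the direction turned to 0.12 without Control 010, whose mean change over the list was 1.80. EGR2 (-1.88 ± 0.68) and EGR3 (-1.85 ± 0.68), with mean levels of 1.13 and 0.20 TPM, were below 0 at an unadjusted p under 0.05.

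**Figure D4:**
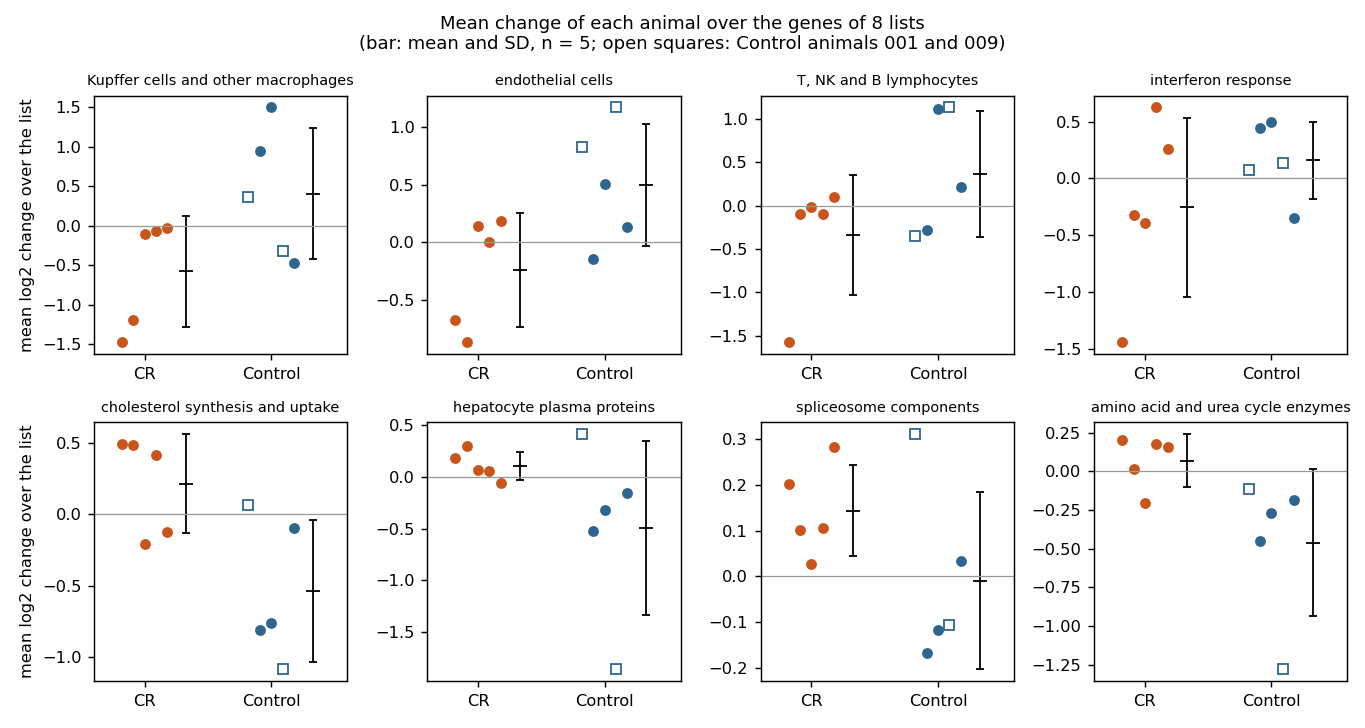
Mean paired log2 change over the genes of 8 lists (vertical axis) for each animal, CR left and Control right, with the mean and SD (n = 5) as a bar and Control 001 and 009 as open squares. Both diets overlap in every panel, CR 004 and 007 are lowest for macrophage and endothelial markers, and Control 009 is lowest for plasma proteins, cholesterol and amino acid genes.

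A table deposited by the authors without a named comparison held this interaction. Over its genes tested here, the log2 fold changes of the authors' deposited table followed the DESeq2 interaction with a Spearman correlation of 0.999974, across genes of the same libraries, and lay lower by 0.108 at the median. When DESeq2 was fitted on the 3071 genes of the authors' deposited table alone, the median absolute difference from it was 0.000185. The authors' deposited table calls 514 of 3071 genes (16.7%) at an adjusted p under 0.05, 118 higher (3.84%) and 396 lower (12.9%), and the refit called 513, all of them among the 514.

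The same contrast gave different counts with the genes that entered it. DESeq2 over all 13730 genes called 41 genes, 32 of them in the authors' deposited table. With p-values adjusted over the table's genes alone it called 106 (3.57%), and fitted on those genes alone 513 (16.7%). Of the 2969 table genes tested here, 21.8% had an edgeR p under 0.05, against 2.74% of the 10761 other genes. How the 3071 genes were chosen is not given in the sources used here. THEMIS has a log2 fold change of 2.25 and an adjusted p of 1.88e-07 in the authors' deposited table, OPTN -1.17 and 3.89e-06, and HMGCS1 1.26 and 0.00204. In edgeR over all genes the same 3 had adjusted p of 0.581, 0.581 and 0.663.

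**Figure D5:**
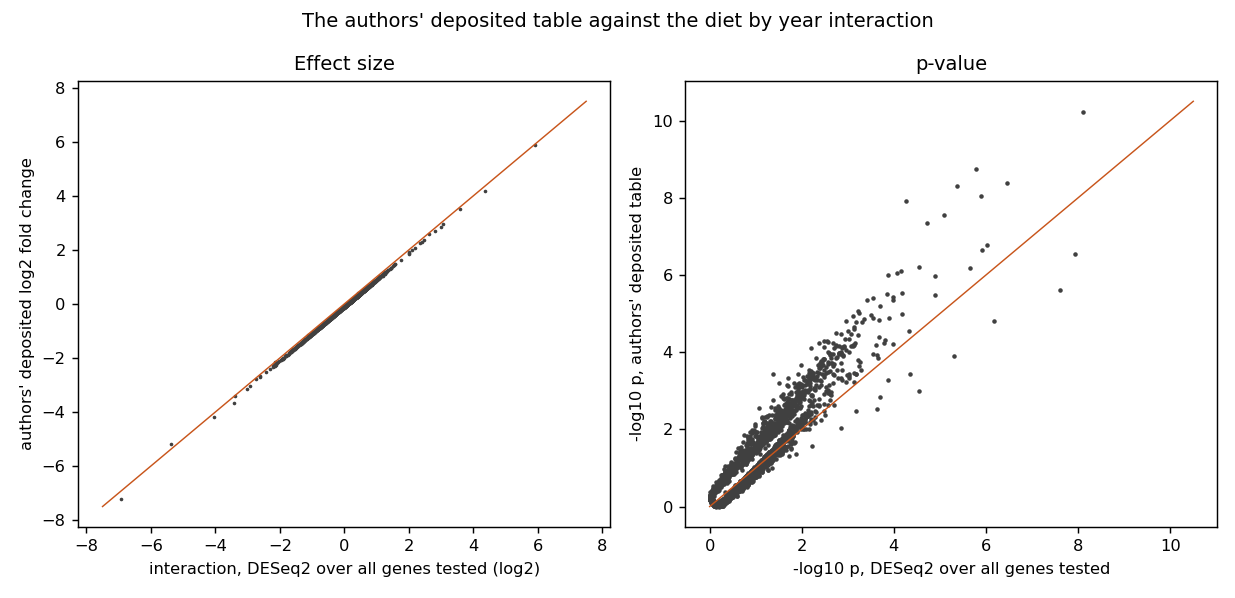
Log2 fold change (left) and -log10 p (right) of each gene in the authors' deposited table (vertical axes) against the diet by year interaction from DESeq2 over all genes tested (horizontal axes), with lines of equality. Fold changes run along the line with a constant offset of -0.108, and the p-values form a band above the line and another on or below it.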

How the data were processed

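Total RNA of liver biopsies was sequenced paired-end from TruSeq libraries, per the labels' protocols. The authors deposited expected counts (estimated counts) per gene, without normalization, for 18288 genes, of which 4.37% of values were not whole, and TPM (estimated transcript abundance, adjusted for length and depth). Their unnamed comparison table gives, per the file headers, a mean normalized count (a signal level), p-values raw and adjusted and log2 fold changes for 3071 genes. The submitters' processing notes list STAR, RSEM and DESeq2, with no version or role, and the build Mmul_8.0.1 (rheMac8). Symbols are those of the deposited tables, and 15272 of 18288 matched a list of gene names.

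Rounded counts of the 13730 genes that passed filterByExpr entered edgeR 4.0.16 under R 4.3.3. TMM-scaled counts were tested with the robust quasi-likelihood F test, two-sided, Benjamini-Hochberg threshold 0.05, in 1 fit of 20 libraries with a term per animal and a year 2 term per diet. The SE of a log2 change is its size divided by the square root of F. CPM of single libraries are TMM-scaled, and paired log2 changes use a prior count of 1. The pairing comes from the animal numbers in the titles. Correlations of an animal's deviations from the group means at both years ran from -0.25 to 0.16. P-values rest on the spread between animals, 5 per diet with 1 biopsy per year. The fit shares 1 estimate of that spread between diets. The SE and p of a CR or Control change therefore do not measure that diet's own spread. Alternatives were DESeq2 1.42.0, limma 3.58.1 on log2(TPM + 1) and log2(TPM + 0.1), voom with sample quality weights, other scaling and filters, no animal term, and leaving out each animal and Control 001 with 009. DESeq2 on the genes of the authors' deposited table was added after seeing the data. On simulated data over 13730 genes, the interaction test recovered 71% of 100 genes with a log2 difference of 2 and 5% of 100 genes with a difference of 1, with 5 false calls. The simulation had no animal effects and gave both diets the same spread, unlike the data. Its rates therefore do not carry over to these libraries.

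The members and the 34 gene lists were chosen with earlier results of these data known. The 106 named genes come from 3 rules. The first takes the 15 per direction with the smallest p, a mean of at least 1 CPM and the same sign without each animal. The others take the 3 members of each process list with the smallest p and a fixed panel of 15 liver genes. The 2 most abundant markers of each cell type were picked by a separate rule that adds no gene to the 106, and not all are printed here. Other list members were named after their values were seen. Some genes that these rules or lists hold are not reported here and enter no count of named genes or list members. The FPKM and transcript tables were not used here.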

Additional observations from a re-analysis of the deposited data

Results flagged for a closer look

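In 9 of the 106 named genes all 5 CR animals moved one way over 2 years and all 5 Control animals the other way. For SF3B14 (interaction 0.61) and CCDC115 (1.06) CR went up and Control down. For LAT2 (-1.77), MRC2 (-1.53), PILRA (-2.11), OPTN (-1.05), GAB2 (-1.42), MAMU-DMA (-1.53) and SLC43A3 (-1.57) CR went down and Control up. Over all genes tested, 35 (0.255%) showed the first pattern and 28 (0.204%) the second. The edgeR test of the difference called 0 of them. Many of the 106 named genes were chosen by a small interaction p. The count of 9 beside these shares therefore describes them and tests nothing.

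Among 212 sets of 5 paired changes in the named genes, 10 had an animal far from the other 4, and chance flags about 1 in 20 groups. In Control animals, 009 was the lowest for F9 (-2.58), CPB2 (-2.20) and ALB (-2.17) and the highest for STAT5A (1.59). Control 001 was the highest for PSMA3 (0.0721) and Control 005 for HPCAL4 (0.0127). In CR animals, 004 was the lowest for HPCAL4 (-1.42) and the highest for NOVA1 (1.74), 007 the highest for IGF1 (1.22) and 008 the highest for PPARA (0.153).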

How the results depend on the processing

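The role of depth in the number of calls was not tested. The interaction gave 41 calls in DESeq2, 106 with its p-values adjusted over the genes of the authors' deposited table and 513 when fitted on those genes alone. It gave 0 without the animal term (the replicate block; 1364 genes at an unadjusted p under 0.05, 373 above 0 and 991 below 0), 0 with relative log expression scaling, no filter, a mean of at least 1 CPM, limma on TPM and voom with quality weights, 0 to 1 without each animal in turn and 1 without Control 001 and 009 (EPHB1). The CR change gave 18 calls in DESeq2, 6 and 38 over and on the table's genes, 1 in limma on log2(TPM + 0.1), 5 with voom quality weights, 0 to 1 without each animal and 1 without Control 001 and 009. The Control change gave 210 in DESeq2, 266 and 664 over and on the table's genes, 0 to 3 without each animal (3 without Control 001) and 1 without Control 001 and 009. The cause of these differences was not tested beyond the construction of each setting. On log2(TPM + 1) and log2(TPM + 0.1) the median of all genes was -0.20 and -0.24, and the split at an unadjusted p under 0.05 was 100 above and 782 below 0, and 109 above and 796 below 0, against 363 and 578. On log2(TPM + 1) the list medians of fatty acid and triglyceride synthesis (-0.04), drug metabolism (-0.02), glucose metabolism (-0.13), the insulin and growth hormone axis (-0.009), autophagy and lysosome (-0.18), cholangiocytes (-0.09) and red cells (-0.03) also lay below 0.

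The 29 genes with the smallest p named here kept their sign in all 632 values computed under the alternatives. They were chosen for the same sign without each animal in turn, so those values could not differ. They were also chosen by p in the same data, and the other named genes below were not held to the sign rule. Of 1625 values for the other 77 named genes, 30 in 10 genes had the other sign. NUDT21 was at -0.053 and MASP1 at -0.11 without Control 001 and 009. SREBF1 was at 0.33 with voom weights, 0.30 without Control 001 and 009, and between -0.60 and 0.32 without each animal in turn (above 0 without 006, 009 or 011). PPARGC1A was at -0.30 with voom weights, -0.41 without Control 001 and 009, and between -0.36 and 0.71 without each animal (below 0 without 009). Without each animal, PPARA ran from -0.46 to 0.022 (above 0 without 005) and CPT1A from -1.53 to 0.16 (above 0 without 010). FGF21 was at 0.075 without the block and between -0.93 and 0.51 without each animal (above 0 without 004, 007, 010 or 011). SRSF3 was at -0.079 in both limma fits. CLK1 was at -0.15 without the block, -0.19 in both limma fits and between -0.24 and 0.29 without each animal (below 0 without 001, 004, 005 or 008). CLK4 was at -0.015 without the block, -0.11 and -0.099 in the limma fits and between -0.071 and 0.37 without each animal (below 0 without 005). The cause of these sign changes was not tested.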

Other observations

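The highest sums of the skeletal muscle, the adipocyte and the kidney, pancreas, gut and mesothelium markers were in Control libraries of year 2. Cholangiocyte markers had a CR change of 0.41 and a Control change of 0.43 at the median, with 10 of 15 interactions above 0. Of the skeletal muscle markers, 3 of 17 could be tested (median interaction -0.58, and -0.17 without Control 009). The 17 summed to 14.8 to 29.7 TPM in CR animals at year 2 and 13.9 to 26.1 TPM at year 0, and to 15.7 to 179.6 TPM in Control animals at year 2 and 14.4 to 22.1 TPM at year 0, with TPM2, a tropomyosin also made by smooth muscle, at up to 145 TPM. Of the kidney, pancreas, gut and mesothelium markers 6 of 19 could be tested (median -0.08, and 0.61 without Control 001 and 009). The 19 summed to 24.9 to 70.6 TPM in CR animals at year 2 and 30.2 to 56.4 TPM at year 0, and to 38.1 to 123 TPM in Control animals at year 2 and 37.9 to 55.1 TPM at year 0. Adipocyte markers had a median of -0.27 over 7 genes, 1 above 0 (-0.69 without Control 006), and summed to 167.5 to 275.5 TPM in CR animals at year 2 and 187 to 287 TPM at year 0, and to 186 to 388 TPM in Control animals at year 2 and 193 to 242 TPM at year 0. The part of these markers in the interaction was not tested. The cell cycle list had a median of -0.01 (16 of 34 above 0), with TPX2, a spindle assembly factor (0.96 ± 0.42, exact permutation p = 0.0476), as the single gene at an unadjusted p under 0.05. The list median had the other sign in 8 of 19 alternatives. The autophagy and lysosome list had a median of 0.05 (-0.14 without Control 009), with OPTN and TFEB, a transcription factor for lysosome genes (-0.75 ± 0.28, exact permutation p = 0.0238), below 0 at an unadjusted p under 0.05. Among genes of the insulin and growth hormone axis (median 0.26, 18 of 24 above 0, and 0.16 without Control 009), SOCS2, an inhibitor of growth hormone signalling, had 0.82 ± 0.35 (exact permutation p = 0.0556).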
